A study of Mus musculus with 24 samples.

Results

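The cochlea of adrenalectomized (ADX) mice was compared after noise at night and after noise by day, by counting messenger RNA per gene in 3 libraries labelled night noise ADX and 3 labelled day noise ADX. These 6 of the series' 24 libraries were taken by their labels, and all 16607 genes that passed a filter on low counts were tested. The mice were of strain CBA/Sca and 12 weeks old. All had been adrenalectomized, which takes away the glands that make most glucocorticoid, and all had been exposed for 1 h to noise at 100 dB SPL in a band of 6 to 12 kHz, the night group from ZT15 and the day group from ZT3 (hours after lights-on). The series design places tissue collection 2 h after the noise, whereas the labels of the libraries give ZT23 for night and ZT11 for day, and this conflict cannot be settled from either source. Night sham exposure ADX and day sham exposure ADX (adrenals removed, no noise) and night noise sham-operated and day noise sham-operated (adrenals in place, noise), each of 3 libraries and of the same strain and age, are used beside them. The labels do not say how many animals a library holds or whether the libraries of a group came from separate animals. The p-values therefore measure the spread between libraries of a group, estimated over all 24 libraries, and this spread may be technical. Hormone levels were not part of the data used here.

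Most cells keep a circadian clock, in which the activators ARNTL and CLOCK switch on the Period, Cryptochrome and REV-ERB (Nr1d) genes, whose products then repress the activators or their genes. Glucocorticoid is released in a daily rhythm and acts on clocks of peripheral tissues through the glucocorticoid receptor, which also induces genes such as Per1, Fkbp5 and Tsc22d3. The cochlea holds such a clock, and loud noise switches on immediate early genes and chemokines in it.

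The 6 libraries held 20409233 to 36108962 counts, within the series' range of 18894996 to 36108962, and none repeated another (chi-square of 12.35 to 41.37 per gene between libraries of a group). The tissue label was checked against markers: all 15 hair cell, 13 supporting cell and 9 spiral ligament genes looked for were counted in each of the 6 libraries, and Coch, an abundant matrix protein of the spiral ligament, had 4967, 4402 and 3174 CPM (counts scaled to the size of each library) in night noise ADX a, b and c, against 4926, 4255 and 3426 CPM in day noise ADX a, b and c. Night noise ADX a stood apart. Transcripts of the pituitary hormones (Gh, Prl and Pomc) took 0.947% of its counts, and 0.0012% and 0.0135% in night noise ADX b and c, against 0.00404%, 0.00102% and 0.000302% in day noise ADX a, b and c. Summed over 19 pituitary genes the level was 10450, 139.5 and 275.4 CPM in the night libraries, against 165.1, 123.8 and 105.1 CPM in the day libraries. Results that rest on this library are given with and without it, and the part of these transcripts in the other results was not tested.

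Of the 16607 genes, 103 (0.62%) passed an adjusted p of 0.05, 62 of them higher (0.373%) and 41 lower (0.247%) at night than by day. Most of these changes were small: 62 of the 103 were under 1.5-fold, and the median size of the log2 change was 0.49. In 100 of the 103 all libraries of one group lay above all of the other, as they did in 14.9% of all genes tested (night above day in 8.31%, night below day in 6.61%). The falls with the smallest adjusted p were in the clock gene Nr1d1 and the cold-inducible gene Rbm3, and the rise with the smallest adjusted p was in the splicing regulator Khdrbs3. Fitted on these 6 libraries alone, without the spread of the other groups, 0 genes passed (1725 at an unadjusted p under 0.05), while DESeq2 called 434 and voom 31 over all libraries. The number of calls also moved with single libraries. Leaving out night noise ADX a, b or c gave 413, 49 or 27 calls, and leaving out day noise ADX a, b or c gave 1313, 16 or 16. In all 6 of these fits 10 genes passed, among them Nr1d1, Cry1, Rbm3, Khdrbs3, Exd2, Fam180a, Lrrc29, Gm19522 and Gm20554.

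**Figure D1:**
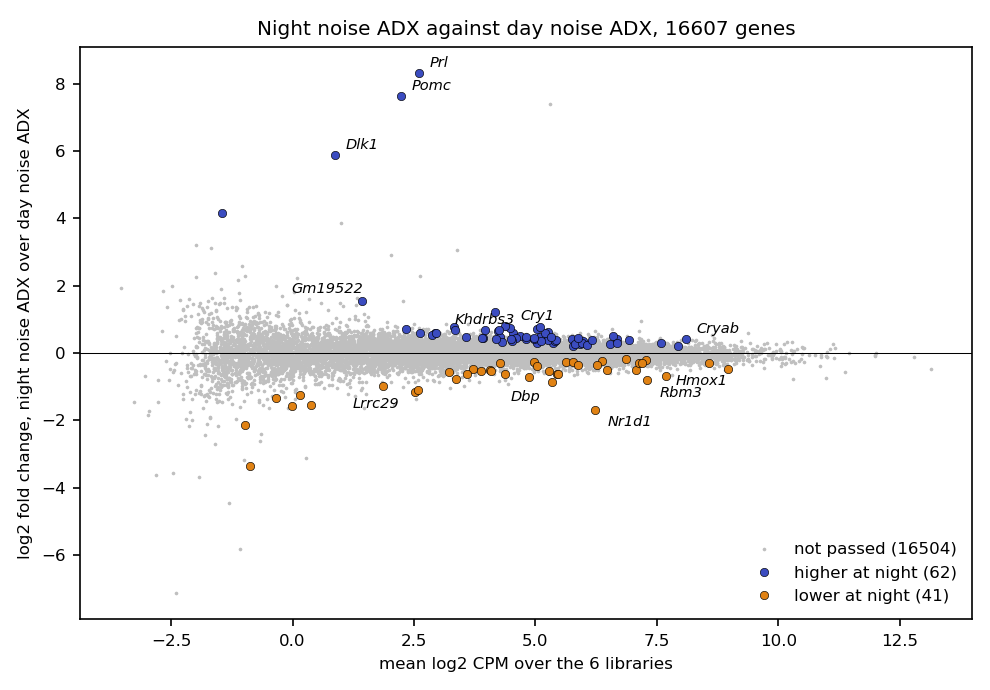
Log2 fold change of night noise ADX over day noise ADX (vertical) against the mean log2 CPM over the 6 libraries (horizontal) for 16607 genes; large points passed an adjusted p of 0.05. The 62 higher and 41 lower genes lie mostly within 1 log2 unit of 0, with Nr1d1 at -1.68, while the pituitary genes Prl, Pomc and Dlk1 lie far above.

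Among the clock genes, 2 of the 21 tested rose, 2 fell and 17 did not pass. Nr1d1 (chromosome 11, 98767932 to 98775333, minus strand, GRCm38), whose product REV-ERB alpha represses Arntl, had 29.2, 44.7 and 52.9 CPM in night noise ADX a, b and c, against 146, 137 and 124 CPM in day noise ADX a, b and c. The groups were far apart, and night noise ADX a was the lowest library. The fall was 3.21-fold (log2 change -1.68, SE 0.149, adjusted p = 5.82e-06), the smallest adjusted p of the comparison, and it held without any 1 library (adjusted p up to 0.000106). Dbp (chromosome 7, 45705088 to 45710203, plus strand), a transcription factor that carries clock output, had 26.0, 26.7 and 38.1 CPM at night and 65.7, 47.7 and 52.6 CPM by day. Its groups did not overlap, and the fall was -0.87 (SE 0.164, adjusted p = 0.0184). Without night noise ADX b the adjusted p was 0.0719, and the call was also lost without day noise ADX c.

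Cry1 (chromosome 10, 85131700 to 85185064, minus strand), a repressor of ARNTL and CLOCK whose transcript peaks late in the night, had 32.4, 28.1 and 25.5 CPM at night, against 15.8, 16.1 and 19.4 CPM by day. Its groups were separate (log2 change 0.75, SE 0.116, adjusted p = 0.00426). The rise passed without any 1 library.

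The promoters of Nr1d1 and Cry1 are shown because these genes moved in opposite directions although ARNTL and CLOCK act on both through E-boxes. Each is the RefSeq stretch from 250 bases before to 50 after the start, 300 bases in GRCm38.p6, written 5′ to 3′ on the gene's own strand, for Nr1d1 chr11:98775328-98775627 (minus strand) and for Cry1 chr10:85185005-85185304 (minus strand). Capitals mark a match to the E-box CACGTG.
Nr1d1: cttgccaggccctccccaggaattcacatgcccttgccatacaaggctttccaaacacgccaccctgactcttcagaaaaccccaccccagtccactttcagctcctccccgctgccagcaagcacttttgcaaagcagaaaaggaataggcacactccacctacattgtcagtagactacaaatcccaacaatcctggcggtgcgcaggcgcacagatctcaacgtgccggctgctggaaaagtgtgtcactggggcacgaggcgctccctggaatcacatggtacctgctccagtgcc
Cry1: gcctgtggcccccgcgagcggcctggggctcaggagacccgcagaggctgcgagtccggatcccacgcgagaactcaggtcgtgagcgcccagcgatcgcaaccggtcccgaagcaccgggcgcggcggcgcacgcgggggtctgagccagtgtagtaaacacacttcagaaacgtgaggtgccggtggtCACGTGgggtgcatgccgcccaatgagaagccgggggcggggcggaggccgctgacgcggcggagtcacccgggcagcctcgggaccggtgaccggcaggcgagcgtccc
The Cry1 window held 1 E-box, which begins 60 bases before the start, and no match to the other motifs searched on both strands: the D-box TTANGTAA, the ROR element TAGGTCA, the AP-1 site TGANTCA, the cyclic AMP element TGACGTCA and the glucocorticoid response element. The Nr1d1 and Dbp windows held no match to any of the 6, which says only that these letters are not in these 300 bases. Of 32851 promoters of the same length, 7.15% held the E-box, 2.32% the D-box, 2.61% the ROR element, 7.81% the AP-1 site, 1.79% the cyclic AMP element and 0.475% the glucocorticoid response element.

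The Period genes did not pass. Per3 had 89.6, 90.2 and 105 CPM at night, against 65.0, 64.3 and 62.3 CPM by day. The groups did not overlap, but its log2 change of 0.57 (SE 0.135) had an adjusted p of 0.0552, and it passed without night noise ADX a or without day noise ADX a. Per2 had 108, 59.4 and 60.2 CPM at night and 46.4, 50.0 and 54.5 CPM by day, so the groups were separate by a small margin apart from night noise ADX a (log2 change 0.60, adjusted p = 0.196). Per1, which is both a clock gene and a glucocorticoid target, had 124, 59.6 and 51.3 CPM at night and 123, 108 and 127 CPM by day. Here night noise ADX a lay among the day libraries and the other night libraries lay below them (log2 change -0.60, adjusted p = 0.189).

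The activators differed little. Arntl had 19.4 ± 0.442 CPM at night and 19.9 ± 1.80 CPM by day (SD, n = 3 each; log2 change -0.04, SE 0.114), Npas2, its partner beside CLOCK, changed by 0.03 (SE 0.179) and Clock by 0.20 (SE 0.0785, adjusted p = 0.181). Nr1d2, the paralogue of Nr1d1, had 118 ± 16.7 CPM at night and 128 ± 19.2 CPM by day (log2 change -0.12, SE 0.12). Over the 13 genes that peak towards dusk, 1 rose and 2 fell, with a median log2 change of -0.02, and over the 8 that peak towards dawn 1 rose, with a median of 0.08, beside a median of 0.0014 over all genes tested. Whether the counting kept opposite strands apart is not given in the sources used here. Nr1d1 shares 1075 bases with Thra on the opposite strand, which had 83.6 CPM at night and 96.3 CPM by day (log2 change -0.20, adjusted p = 0.155), and Dbp shares 737 bases with Sphk2 (log2 change 0.07).

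**Figure D2:**
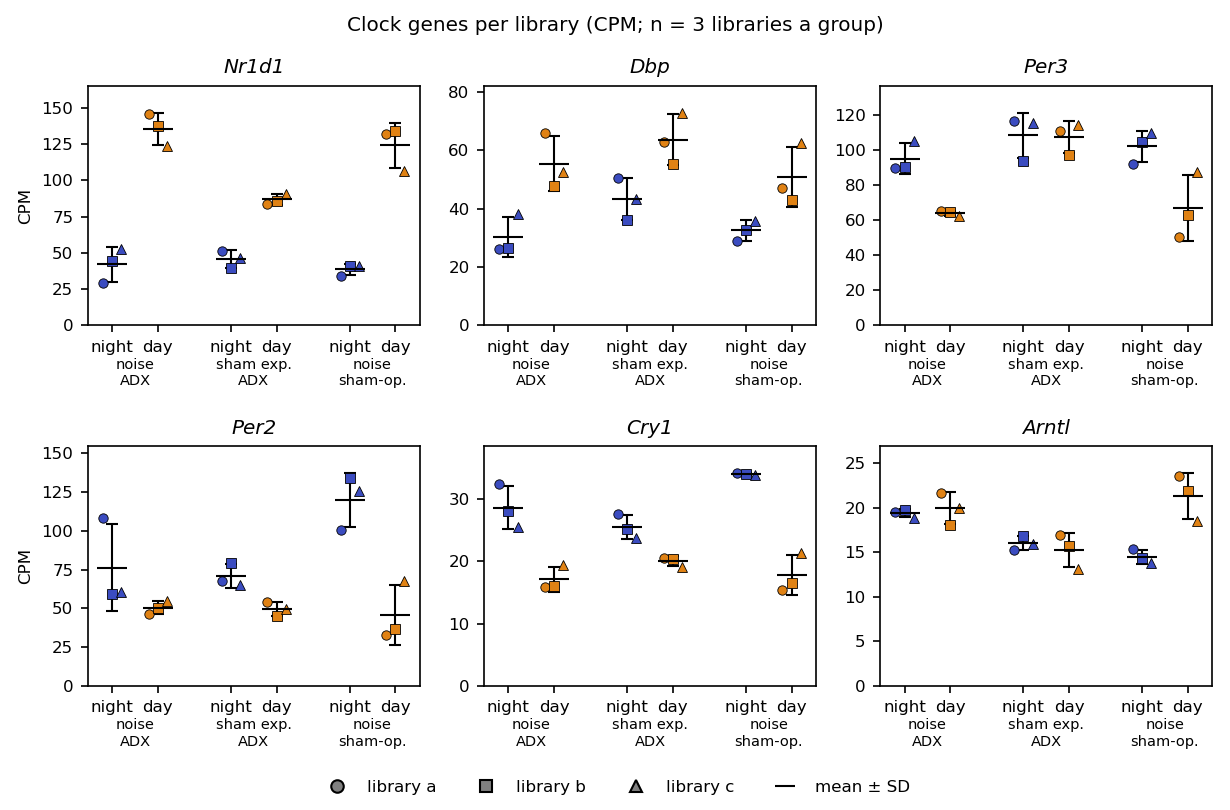
Level in CPM of 6 clock genes in each library of 6 groups, night left of day, with the mean ± SD (n = 3). In night and day noise ADX the libraries of Nr1d1, Dbp, Per3, Per2 and Cry1 do not overlap, those of Arntl do, and night noise ADX a is the highest night library of Per2 and Cry1 and the lowest of Nr1d1.

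The cold-inducible gene Rbm3 (chromosome X, 8138975 to 8145880, minus strand), which encodes an RNA-binding protein that rises when body temperature falls, had 107, 129 and 122 CPM in night noise ADX a, b and c, against 187, 230 and 213 CPM in day noise ADX a, b and c. No night library reached a day library, and the fall of -0.81 (SE 0.0931, adjusted p = 0.000157) held without any 1 library. Its relative Cirbp had 38.6, 50.9 and 60.9 CPM at night and 77.0, 59.9 and 54.6 CPM by day, with overlapping groups (log2 change -0.35, adjusted p = 0.234). Cryab (chromosome 9, 50751325 to 50756636, plus strand), a small heat-shock protein of the lens and muscle, had 331, 308 and 302 CPM at night and 237, 246 and 226 CPM by day, all night libraries being higher. Its rise was 0.41 (SE 0.0688, adjusted p = 0.00913), and the adjusted p was 0.0686 without day noise ADX c. The inducible heat-shock proteins did not pass: Hspa1a had 11.6, 8.11 and 5.75 CPM at night and 11.3, 16.4 and 22.2 CPM by day, and Hspa1b changed by -0.93 (adjusted p = 0.304). Of the 12 cold-inducible and chaperone genes, 1 rose, 1 fell and 10 did not pass, with a median log2 change of -0.11 (-0.20 without night noise ADX a). At an unadjusted p under 0.05 there were 5. DESeq2 called 2 higher and 1 lower (Rbm3, Srsf5 and Cryab), and voom 1 higher and 1 lower (Rbm3 and Cryab). Srsf5 passed as higher without night noise ADX a, where 1.4% of all genes did, and without day noise ADX a, where 4.31% did.

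Khdrbs3 (chromosome 15, 68928420 to 69101211, plus strand), an RNA-binding regulator of splicing, had 23.2, 23.1 and 21.7 CPM in night noise ADX a, b and c, against 16.6, 15.2 and 16.9 CPM in day noise ADX a, b and c. The spread within each group was under 2 CPM and the groups were clearly apart, with a log2 change of 0.48 (SE 0.0609, adjusted p = 0.000462). A larger change was that of Gm19522 (chromosome 16, 42884370 to 42912065, minus strand), an antisense RNA within Zbtb20, which had 4.12, 5.07 and 4.52 CPM at night and 1.95, 1.62 and 1.10 CPM by day (log2 change 1.55, SE 0.213, adjusted p = 0.00114). Zbtb20, on the opposite strand, changed by -0.28 (adjusted p = 0.352). Also higher in every night library were Exd2, an exonuclease (log2 change 0.35, adjusted p = 0.00383), Gm20554, a long intergenic RNA (0.77, adjusted p = 0.00383), and Fam180a (0.64, adjusted p = 0.0059). These 5 genes passed without any 1 library.

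Other genes with large rises lost their call without 1 or more libraries. Prex2, which activates the GTPase Rac, had 26.0, 27.1 and 28.7 CPM at night and 19.9, 14.4 and 13.1 CPM by day (log2 change 0.79, adjusted p = 0.00798). Rarb, a nuclear receptor for retinoic acid, changed by 0.70 (adjusted p = 0.0131), and Zbed6, a transcriptional repressor encoded within Zc3h11a, by 0.77 (adjusted p = 0.0108). Zc3h11a itself changed by 0.07 (adjusted p = 0.513), and how reads of this overlapping pair were shared out is uncertain. Car11, a carbonic anhydrase-related protein, had 40.0, 41.0 and 44.2 CPM at night and 29.4, 25.1 and 22.4 CPM by day (log2 change 0.70, adjusted p = 0.00936). It lies on chromosome 7 at 45699843 to 45704682 and ends 405 bases before Dbp on the same strand, and the neighbours changed in opposite directions. Prex2, Rarb, Zbed6 and Car11 were each lost without day noise ADX b and without day noise ADX c, with adjusted p up to 0.0633, 0.0838, 0.087 and 0.0686. Vgll3, a cofactor of TEAD transcription factors, rose by 0.72 (adjusted p = 0.0227), Rdh5, a retinol dehydrogenase, by 0.69 (adjusted p = 0.0232) and Dhh, a hedgehog ligand of Schwann cells, by 0.68 (adjusted p = 0.0278). The 3 were each lost without day noise ADX b or c or night noise ADX b or c. On the same strand, Rdh5 shares 5007 bases with Bloc1s1 (log2 change -0.19, adjusted p = 0.235) and Dhh 3389 with Rhebl1 (0.40, adjusted p = 0.0847). How reads of these pairs were shared out is also uncertain.

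Among the falls, Lrrc29 (chromosome 8, 105312265 to 105326278, minus strand), an F-box protein with leucine-rich repeats, had 3.73, 3.74 and 4.01 CPM in night noise ADX a, b and c, against 10.1, 7.39 and 8.04 CPM in day noise ADX a, b and c. The groups were well apart (log2 change -1.15, SE 0.191, adjusted p = 0.00839) and the call held without any 1 library. Klf11, a Krüppel-like transcription factor induced by TGF-beta, had 22.6, 25.2 and 20.4 CPM at night and 35.7, 35.5 and 41.2 CPM by day (log2 change -0.72, adjusted p = 0.0131). Klf10, its close relative, named after its value was seen, fell by 0.52 (adjusted p = 0.0155). Without day noise ADX c the adjusted p was 0.0838 for each of the pair. Piezo1, a mechanically gated ion channel, had 128, 126 and 122 CPM at night and 154, 150 and 161 CPM by day (log2 change -0.31, adjusted p = 0.0141), and Wdr81, a protein of endosomes, fell by 0.37 (adjusted p = 0.0131). Txndc11, a thioredoxin-domain protein of the endoplasmic reticulum, also fell by 0.37 (adjusted p = 0.0131) and Wbscr27 by 0.55 (adjusted p = 0.0131). Each of these 4 was lost without at least 2 of the libraries, with adjusted p up to 0.0878 without night noise ADX c for Piezo1, 0.0838 without day noise ADX c for Wdr81, 0.087 without day noise ADX b for Txndc11 and 0.0698 without night noise ADX c for Wbscr27.

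Hmox1, the inducible enzyme of heme breakdown, had 186, 158 and 143 CPM at night and 222, 256 and 314 CPM by day. The night libraries all lay lower, and the fall was 0.70 on the log2 scale (SE 0.158, adjusted p = 0.0487). Timd4, a receptor by which macrophages take up dying cells, fell by 0.77 (adjusted p = 0.0487) and Tlr7, an endosomal sensor of RNA, by 0.64 (adjusted p = 0.0227). Stab2, a scavenger receptor of sinusoidal endothelium, P2ry13, a nucleotide receptor, Clec4a2, a lectin of myeloid cells, and Slc15a3, a lysosomal peptide transporter, were named after their values were seen and fell by 0.63, 0.58, 0.62 and 0.50. Mir144, counted from reads at the locus of an erythroid microRNA and not from mature microRNA, had 0.825, 0.639 and 0.695 CPM at night and 1.91, 2.10 and 2.27 CPM by day (log2 change -1.53, adjusted p = 0.0287). All 8 calls were lost without day noise ADX b, with adjusted p from 0.0899 for Stab2 to 0.213 for Clec4a2 in the fit where each was highest. P2ry13 shares 2991 bases with Med12l on the opposite strand, which rose by 0.43 (adjusted p = 0.0232). How reads of this pair were shared out is uncertain. Other falls were in C8g, a subunit of complement (-1.25, adjusted p = 0.0327), Tcap, a sarcomere protein that caps titin (-1.11, adjusted p = 0.0451), and 6030468B19Rik (-0.98, adjusted p = 0.0347), each lost without day noise ADX b or c or night noise ADX b or c.

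Markers of macrophages and marrow cells were lower at night without reaching the threshold. In bulk tissue, fewer cells of a type and less RNA per cell cannot be told apart. Of the 11 macrophage markers 0 passed with edgeR (9 at an unadjusted p under 0.05, 3 lower with DESeq2 and 0 with voom), all 11 were lower at night and their median log2 change was -0.32. Their summed level was 2006, 1664 and 1459 CPM in night noise ADX a, b and c, against 1674, 2538 and 2323 CPM in day noise ADX a, b and c. Day noise ADX a thus lay among the night libraries. Without it 5 of the 11 passed as lower (Csf1r, Aif1, C1qb, Mrc1 and Lyz2), where 3.53% of all genes did. The median was then -0.42. Without night noise ADX a, 1 of the 11 passed as lower (C1qb), where 1.07% of all genes did, with a median of -0.45. Neutrophil and myeloid markers summed to 8220, 7672 and 6316 CPM at night and 7076, 13000 and 10270 CPM by day, with all 12 lower at night, a median of -0.41 and 0 passed with any of the 3 tools (6 at an unadjusted p under 0.05). Without day noise ADX a, 5 of these 12 also passed as lower (S100a8, S100a9, Camp, Fcnb and Cebpe), with a median of -0.56. Without night noise ADX a, 0 of these 12 passed, with a median of -0.52. Their largest changes were in S100a8 (-0.76, adjusted p = 0.122) and S100a9. Erythroid markers summed to 14280, 13730 and 8711 CPM at night and 15010, 17280 and 17330 CPM by day. All 9 tested were lower at night, with a median of -0.35 (-0.55 without night noise ADX a) and 0 passed with any of the 3 tools (4 unadjusted). Lymphoid markers had a median of -0.10 and 0 of 14 passed with the 3 tools (1 unadjusted). Cell cycle genes, which marrow also expresses, were all 15 lower at night, with a median of -0.23 and 0 passed with the 3 tools (2 unadjusted). The part of these cells in the falls of Timd4, Tlr7 and the other genes above was not tested.

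Among the lists of cochlear cells edgeR called 0 genes. Of 15 hair cell genes 14 were higher at night, with a median log2 change of 0.28 (3 unadjusted, 1 higher with DESeq2 and 0 with voom). Otof, which hair cells need to release transmitter, had 77.0, 86.3 and 98.1 CPM at night and 64.2, 65.0 and 57.5 CPM by day, without overlap (log2 change 0.48, adjusted p = 0.134), whereas Myo7a, a myosin of their bundles, had 47.5 ± 0.859 CPM at night and 45.4 ± 3.13 CPM by day (SD, n = 3 each). All 12 glia and myelin genes were higher at night, with a median of 0.29 and 0 called by the 3 tools (5 unadjusted). Without day noise ADX a, 4 of the 12 passed as higher (among them Pmp22, Prx and Mal), where 4.31% of all genes did. Without night noise ADX a, 0 of the 12 passed, with a median of 0.37. Supporting cell genes had a median of 0.20, or 0.31 without night noise ADX a (3 of 13 unadjusted, 1 lower with DESeq2), spiral ganglion genes 0.19, or 0.33 without day noise ADX a (3 of 14 unadjusted), strial genes -0.14 (2 of 12 unadjusted, 1 lower with DESeq2) and spiral ligament genes 0.04 (2 of 9 unadjusted).

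**Figure D3:**
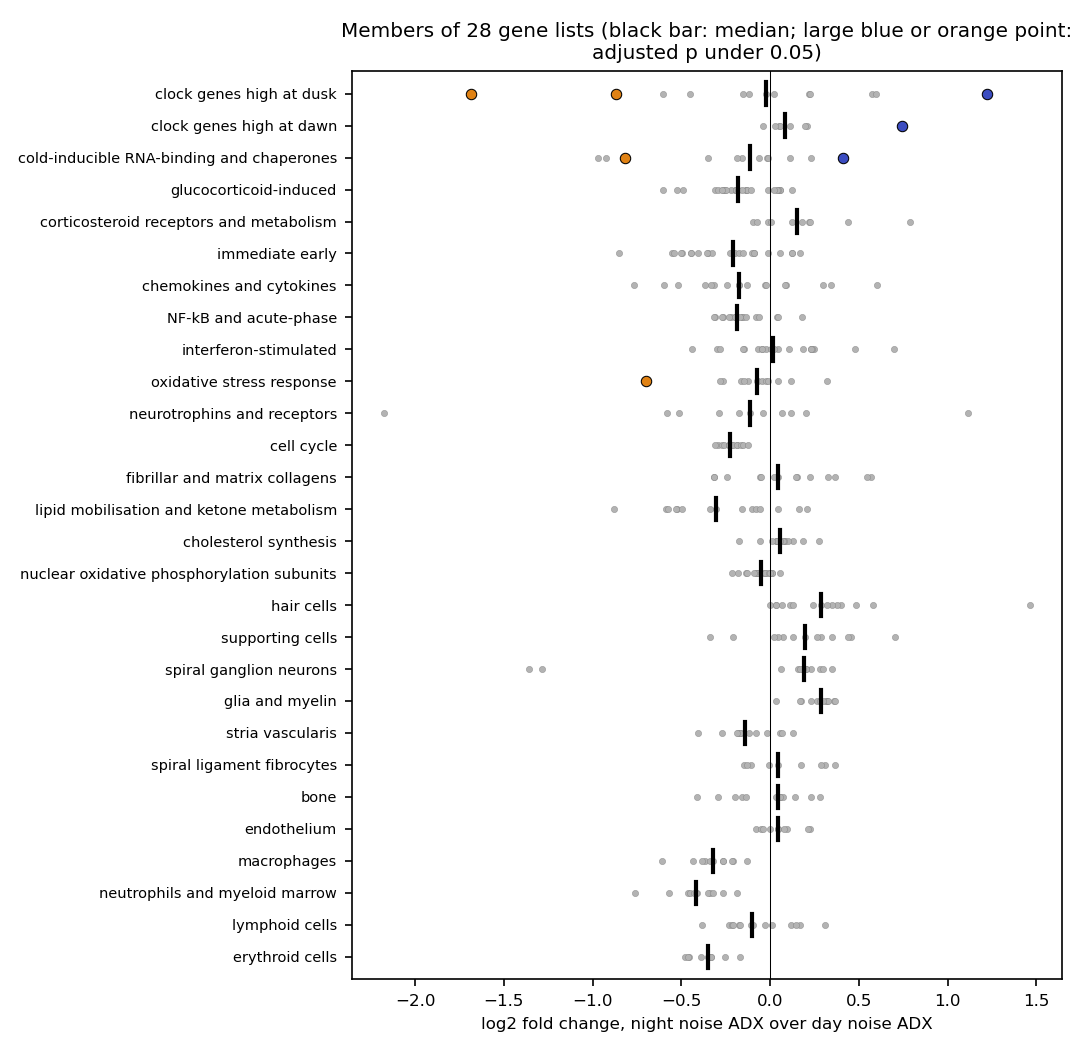
Log2 fold change of night noise ADX over day noise ADX for the tested members of 28 gene lists (a point per gene, a black bar at the median). Blue and orange points passed higher and lower; they lie in the clock, cold-inducible and oxidative stress lists, while all members of the macrophage, neutrophil, erythroid and cell cycle lists lie below 0 and all glia and myelin members above.

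Whether noise induced its early genes to a different level at night was the next question. In these mice it gave no call among 25 immediate early genes (6 at an unadjusted p under 0.05, 0 with DESeq2 and 0 with voom), and their median log2 change was -0.21. The median was -0.41 without night noise ADX a, where 0 of the 25 passed. It was -0.36 without day noise ADX a, where 2 of the 25 passed as lower (Egr3 and Ier3), beside 3.53% of all genes. Fos, which encodes part of AP-1, had 66.7, 63.6 and 25.2 CPM in night noise ADX a, b and c, against 44.4, 80.3 and 101 CPM in day noise ADX a, b and c. The groups overlapped widely (log2 change -0.54, SE 0.37, adjusted p = 0.445). In the sham exposure ADX groups it had 5.84 ± 0.251 CPM at night and 9.06 ± 0.187 CPM by day (SD, n = 3 each), so every noise library lay above every unexposed one. Gem, a GTPase of the RGK family, had 46.9, 40.3 and 29.0 CPM at night and 28.3, 43.1 and 52.2 CPM by day (log2 change -0.09, SE 0.285, adjusted p = 0.891). Gdf15, a stress-induced cytokine, had 8.01, 9.84 and 6.25 CPM at night and 4.42, 6.54 and 8.57 CPM by day, also overlapping (log2 change 0.30, SE 0.258). The largest changes of the list, in Fosb (-0.85, adjusted p = 0.295) and Nr4a1 (-0.55, adjusted p = 0.405), did not pass either.

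Chemokines, cytokines and other inflammatory genes gave no call either. Of 17 chemokines and cytokines 0 passed with the 3 tools (2 unadjusted), with a median of -0.18, which was -0.016 without night noise ADX a and -0.38 without day noise ADX a. Ccl2, which draws monocytes, had 2.40, 4.28 and 4.13 CPM at night and 2.43, 5.03 and 4.66 CPM by day, nearly the same range (log2 change -0.18, SE 0.308). Of 19 NF-kB and acute-phase genes 0 passed with edgeR (6 unadjusted, 1 lower with DESeq2, 0 with voom), with a median of -0.19, and 16 of them were lower at night. Without day noise ADX a, 4 of the 20 tested in that fit passed as lower (Nfkb1, Nfkb2, Stat3 and Birc3), where 3.53% of all genes did. Without night noise ADX a, 1 of 20 passed as lower (Nfkbia), where 1.07% of all genes did. Interferon-stimulated genes had a median of 0.01, with 0 of 20 passed by the 3 tools (1 unadjusted). In the oxidative stress list Hmox1 was the 1 gene of 14 that passed, and the median was -0.07.

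**Figure D4:**
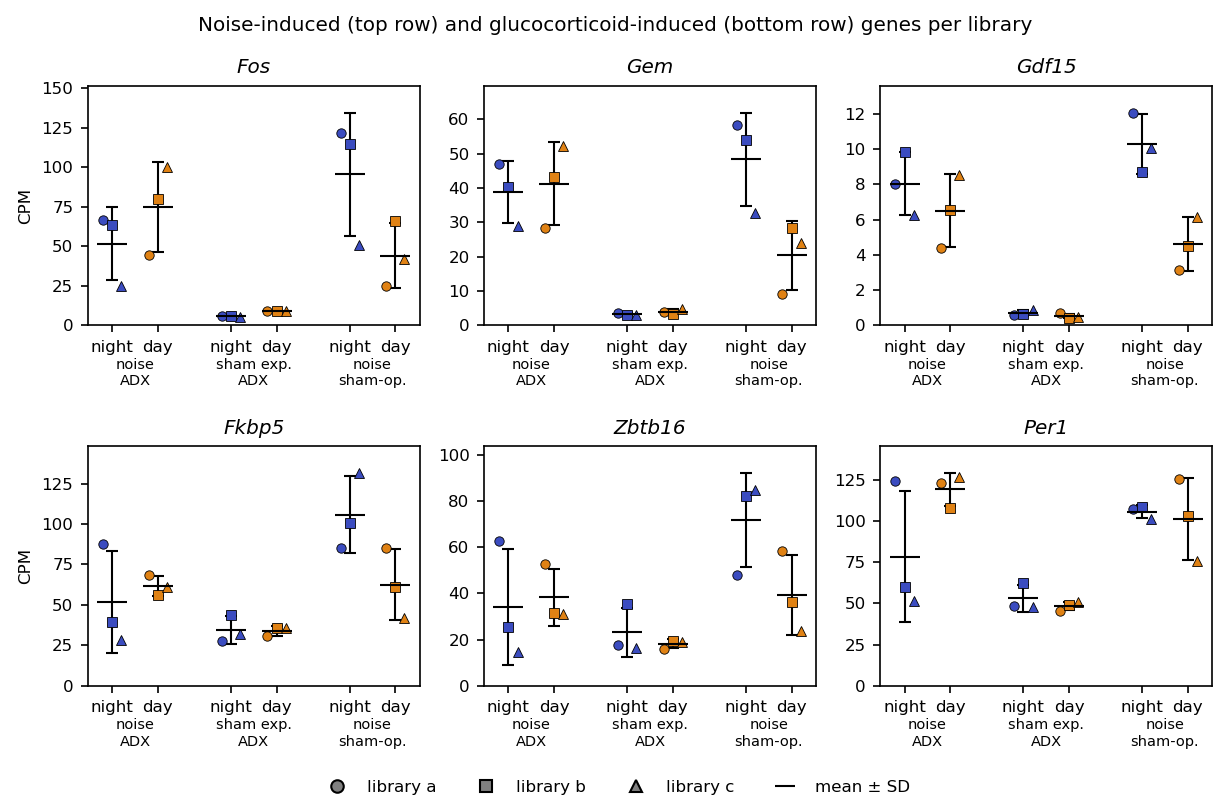
Level in CPM of 3 noise-induced genes (top) and 3 glucocorticoid-induced genes (bottom) in each library of 6 groups, night left of day, with the mean ± SD (n = 3). The noise ADX libraries of Fos, Gem and Gdf15 lie above all sham exposure ADX libraries with night and day overlapping, and night noise ADX a is far above night noise ADX b and c for Fkbp5, Zbtb16 and Per1.

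Glucocorticoid-induced genes split the night group. Of 25 tested, 0 passed with the 3 tools (5 unadjusted), and the median log2 change was -0.18. Fkbp5, a chaperone of the glucocorticoid receptor and a classic target, had 87.7, 39.6 and 28.1 CPM in night noise ADX a, b and c, against 68.2, 56.0 and 61.1 CPM in day noise ADX a, b and c. Night noise ADX a was above every day library and the other night libraries were below every day library. Tsc22d3, known as GILZ, had 162, 93.5 and 79.6 CPM at night and 117, 101 and 108 CPM by day, and Zbtb16 had 62.4, 25.2 and 14.8 CPM at night and 52.6, 31.5 and 30.9 CPM by day, in the same arrangement. Sgk1, a kinase induced by corticosteroids, had 296, 228 and 200 CPM at night and 285, 266 and 313 CPM by day.

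The mean log2 CPM of the list, with each gene centred over the 24 libraries, was 0.454, -0.171 and -0.444 in night noise ADX a, b and c, against 0.242, 0.166 and 0.202 in day noise ADX a, b and c (exact two-sided permutation p = 0.4, with 0.1 the smallest possible for 3 against 3). In the sham exposure ADX groups it ran from -0.57 to -0.308 at night and from -0.549 to -0.456 by day, below all day noise ADX libraries, and in the noise sham-operated groups from 0.383 to 0.538 at night and from -0.141 to 0.246 by day. Night noise ADX a thus lay in the range of the sham-operated night libraries. Without it, 5 of the 25 genes passed as lower at night (Sgk1, Per1, Ddit4, Nfkbia and Hif3a), where 1.07% of all genes did, and the median was -0.46. Night noise ADX a is also the library with the pituitary transcripts, and the part of these in the values of the list was not tested.

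The receptors did not pass. Nr3c1, the glucocorticoid receptor, had 138 ± 11.3 CPM at night and 119 ± 4.48 CPM by day (log2 change 0.22, adjusted p = 0.135), and Nr3c2, the mineralocorticoid receptor, had 28.4, 32.3 and 39.6 CPM at night and 30.8, 22.8 and 20.4 CPM by day (log2 change 0.44, adjusted p = 0.131). Of the 10 genes of corticosteroid receptors and metabolism 0 passed with the 3 tools (3 unadjusted), with a median of 0.15. Hsd11b1, which regenerates active hormone within cells, had 27.4 ± 5.59 CPM at night and 28.6 ± 6.23 CPM by day (SD, n = 3 each).

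**Figure D5:**
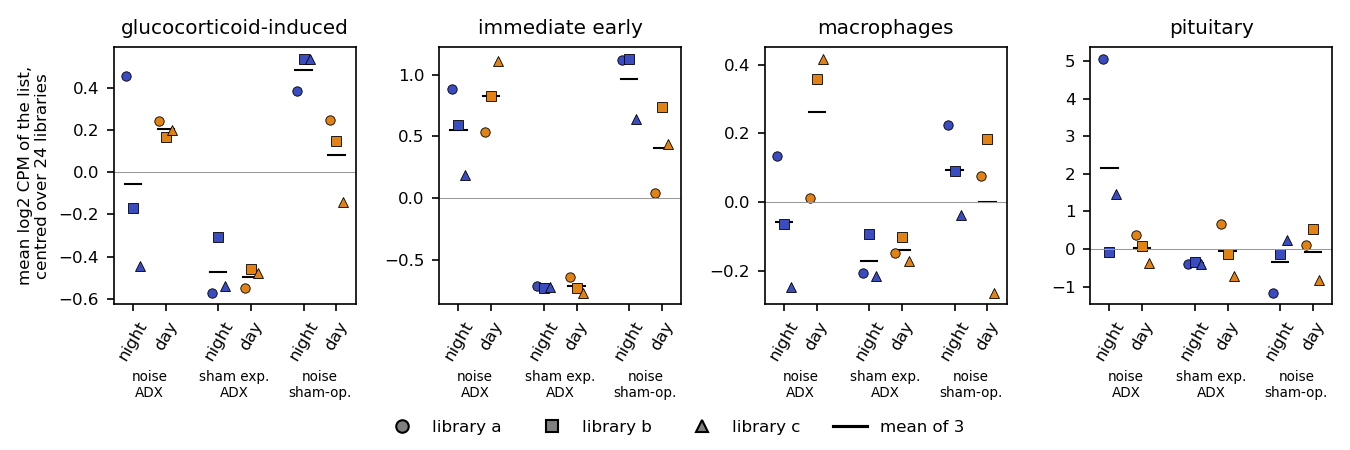
Mean log2 CPM of 4 gene lists, each gene centred over the 24 libraries, in each library of 6 groups, night left of day, with a bar at the mean of 3. Night noise ADX a is at 0.454 for the glucocorticoid-induced genes, with night noise ADX b and c at -0.171 and -0.444, and at 5.07 for the pituitary genes; the macrophage values of day noise ADX b and c (0.357 and 0.417) are the highest of the 6 groups.

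Bdnf, a neurotrophin that supports auditory neurons, had 2.55, 3.98 and 4.05 CPM in night noise ADX a, b and c, against 1.39, 1.93 and 1.52 CPM in day noise ADX a, b and c. The groups did not overlap, and the log2 change of 1.11 (SE 0.261) missed the threshold with an adjusted p of 0.0511. It passed without night noise ADX a and without day noise ADX a, and the adjusted p reached 0.184 without night noise ADX c. In its list of neurotrophins and receptors 0 of 11 passed with edgeR (1 unadjusted, 1 higher with DESeq2, 0 with voom), with a median of -0.11.

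Collagen genes had a median log2 change of 0.04, and 0 of 15 passed with the 3 tools (5 unadjusted). Col2a1, a cartilage collagen, had 257, 508 and 752 CPM at night and 373, 330 and 337 CPM by day, so night noise ADX a lay below the day libraries and the others above. Without that library 4 of the 15 passed as higher (Col2a1, Col11a1, Col11a2 and Col12a1), where 1.4% of all genes did. Lipid mobilisation genes had a median of -0.30 (5 of 15 unadjusted, 2 lower with DESeq2, 0 with edgeR), cholesterol synthesis genes 0.06 (1 of 15), nuclear genes of oxidative phosphorylation -0.05 (2 of 17), bone markers 0.04 (1 of 12) and endothelial markers 0.05 (2 of 10), with 0 passed by edgeR in each. Without night noise ADX a, 2 of the 12 bone markers passed as higher (Phex and Alpl), where 1.4% of all genes did, with a median of 0.018. Without day noise ADX a, 0 of the 12 passed. Genes of skeletal muscle (median -0.15, 2 of 16 unadjusted), of the cerebellum (0.07, 0 of 12) and of fat (-0.31, 0 of 9), which dissection could carry in, also gave 0 calls with the 3 tools. The called sarcomere gene Tcap is not in the muscle list. The centred mean of that list ran from -0.857 to -0.725 in night noise ADX and from -0.709 to 0.07 in day noise ADX. Its summed level overlapped, at 168.5 to 211 CPM at night and 132.9 to 181.9 CPM by day. The part of muscle in the fall of Tcap was not tested.

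Among the 11 pituitary genes tested, 3 passed as higher (Pomc, Prl and Dlk1) and the median log2 change was 3.06. Without night noise ADX a the median was 0.32 and 1 gene passed (Pomc). Without day noise ADX a, 7 of the 12 tested in that fit passed as higher, where 4.31% of all genes did. Over all libraries DESeq2 called 5 genes of the list as higher (Prl, Pomc, Lhb, Chga and Lhx3) and voom called 0. Pomc, the precursor of ACTH, had 465, 1.13 and 49.4 CPM at night and 1.75, 0.711 and 0.190 CPM by day, so night noise ADX a and c were high and night noise ADX b lay among the day libraries. The calls of Prl and Dlk1 were lost without night noise ADX a (adjusted p = 0.208 and 0.676), and all 3 calls were lost without day noise ADX b or c (adjusted p up to 0.132 for Pomc). Gh had 7593, 8.70 and 61.4 CPM at night and 34.3, 8.90 and 2.81 CPM by day, and did not pass (adjusted p = 0.0803).

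The same contrast of night with day was set beside 2 others that share no library with it. Without noise, in the sham exposure ADX groups, 3 genes passed (0.0181%), 0 of them higher (543 higher at an unadjusted p under 0.05). The 3 were Nr1d1, Gdf6 and Pla2g2d. With noise and adrenals in place, in the noise sham-operated groups, 186 passed (1.12%), 134 higher (0.807%) and 52 lower (0.313%). Of the 103 genes called in the noise ADX groups, 80 had the same sign in the sham exposure ADX groups and 84 in the noise sham-operated groups. The share of all genes tested with the same sign was not worked out, so these counts have no background beside them. The noise ADX and noise sham-operated groups shared 19 calls, all in the same direction, which are 18.4% of the 103 and 10.2% of the 186. They include the clock genes Nr1d1 and Cry1, the heat and cold genes Cryab and Rbm3, and Khdrbs3, Klf11, Prex2, Car11, Zbed6, Rarb, Fam180a, Gm19522 and Gm20554.

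Nr1d1 changed by -1.68 in the noise ADX groups and by -1.68 (adjusted p = 6.46e-06) in the noise sham-operated groups, where it had 38.8 ± 3.89 CPM at night and 124 ± 15.4 CPM by day. In the sham exposure ADX groups it had 45.8 ± 6.09 CPM at night and 86.8 ± 3.75 CPM by day (log2 change -0.92, adjusted p = 0.0328). The mean night levels were thus alike and the mean day levels were higher in both noise groups. Noise against sham exposure within a time of day was not tested. The difference between the noise and sham exposure changes of Nr1d1, -0.76 (SE 0.207), had an adjusted p of 0.287. For Rbm3 the same difference was -0.60 (SE 0.131, adjusted p = 0.241), with 133 ± 4.92 CPM at night and 154 ± 14.6 CPM by day in the sham exposure ADX groups.

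Khdrbs3 was the 1 gene (0.00602%) whose difference of night from day differed between noise and sham exposure in ADX mice (1935 at an unadjusted p under 0.05, 23 called by DESeq2). In the sham exposure ADX groups it had 18.97, 18.37 and 18.47 CPM in night libraries a, b and c, against 21.05, 20.12 and 19.41 CPM in day libraries a, b and c. There the night libraries lay below the day libraries (log2 change -0.12), the reverse of the noise groups, and the difference of the log2 changes was 0.60 (SE 0.086, adjusted p = 0.0103). The call was lost without day noise ADX b (adjusted p = 0.0505), day sham exposure ADX a (0.076), night sham exposure ADX b (0.0651) or night sham exposure ADX c (0.0642). In the noise sham-operated groups it rose by 0.26 (adjusted p = 0.0368), with 22.2 ± 0.16 CPM at night and 18.5 ± 0.334 CPM by day. Piezo1 came next, with a difference of -0.46 (SE 0.0787, adjusted p = 0.0667). In the sham exposure ADX groups it had 134, 144 and 132 CPM at night and 123, 123 and 122 CPM by day, where the night libraries were the higher ones.

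Between the noise ADX and the noise sham-operated changes 0 genes differed with edgeR (2407 at an unadjusted p under 0.05, 38 called by DESeq2, 0 by voom). Genes that passed in the noise sham-operated groups and not in the noise ADX groups are therefore not shown to differ between them. Per2 is such a gene, with a log2 change of 0.60 in the noise ADX groups and 1.39 (adjusted p = 0.00627) in the noise sham-operated groups, and a difference of -0.79 (SE 0.333, adjusted p = 0.312). Arntl changed by -0.04 and -0.56 (difference 0.52, SE 0.163, adjusted p = 0.241), and Npas2 by 0.03 and -0.85 (difference 0.88, SE 0.257, adjusted p = 0.234). The median log2 change of the immediate early genes was -0.21 in the noise ADX groups and 0.58 in the noise sham-operated groups, and that of the glucocorticoid-induced genes -0.18 and 0.38. Among fits that leave out 1 library, the counts of differing genes moved most with day noise ADX a, without which 600 genes differed with adrenalectomy and 36 with noise, and with night noise ADX a, without which 287 differed with adrenalectomy.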

How the data were processed

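Messenger RNA of mouse cochlea was sequenced in 24 libraries of 8 groups, 3 each, from a stranded poly-A kit per the labels' protocols. The deposited values are raw counts per gene made by the authors; the submitters' processing notes name TopHat2 2.0.11, HTSeq 0.6p1 and build mm10, and the strand setting is not given in the sources used here. Of 23420 entries, 3340 held no count, and 27 entries whose names had turned into dates (0.214% of counts) were kept as deposited. Groups were taken from the labels.

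Genes were filtered with filterByExpr of edgeR 4.0.16 (R 4.3.3), scaled by TMM and tested over all 24 libraries with edgeR's robust quasi-likelihood test and Benjamini-Hochberg adjustment over 16607 genes (threshold 0.05, common biological coefficient of variation 0.0991). All adjusted p-values are from this fit unless another tool is named. CPM used TMM library sizes, and SE is on the log2 scale. DESeq2 1.42.0, voom of limma 3.58.1 with library weights, RLE scaling, no filter, a replicate block, a fit on the compared groups alone and fits without single libraries were the alternatives. The edgeR, DESeq2 and voom steps were tested on simulated data.

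The comparison and the 32 gene lists (465 entries, 442 tested) were chosen with earlier results of these data known, so no list is independent evidence. Genes were named by a rule: the largest called changes with separate groups kept without night noise ADX a, called list members, a fixed set of clock, noise and hormone genes, the largest changes of each list, and the smallest adjusted p in each test. Other genes named were chosen after their values were seen. Positions are GENCODE vM21 on GRCm38; promoters are from RefSeq, GRCm38.p6. Some genes counted in the lists are not reported here by name.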

Additional observations from a re-analysis of the deposited data

Results flagged for a closer look

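Khdrbs3 is set out here because its difference of night from day was not the same with and without noise in adrenalectomized mice, by a test of the difference itself. The log2 change was 0.48 in the noise ADX groups and -0.12 in the sham exposure ADX groups, a difference of 0.60 (SE 0.086, edgeR's quasi-likelihood test with Benjamini-Hochberg adjustment, adjusted p = 0.0103). Khdrbs3 was higher at night in 3 of 3 noise ADX libraries and lower at night in 3 of 3 sham exposure ADX libraries, set against all day libraries of the same exposure. These counts restate the values by which the gene was picked and are no further evidence. In the noise ADX groups 8.31% of all genes tested had every night library above every day library. Over the alternatives the difference stayed between 0.55 and 0.63, and its adjusted p ran from 3.59e-05 with DESeq2 to 0.249 in the fit on the compared groups alone.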

How the results depend on the processing

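No named gene turned its sign between the main fit and an alternative where at least 1 of these fits passed the threshold. Signs of changes that passed in neither fit were not compared. In the fits without night noise ADX a or without day noise ADX a, the medians of 4 lists changed sign. Neurotrophins (-0.11) had 0.039 without night noise ADX a. Without day noise ADX a, clock genes high at dusk (-0.02) had 0.05, bone (0.04) had -0.07 and interferon-stimulated genes (0.01) had -0.06. Medians of the lists in the other fits are not given here. The count of 103 genes was 434 with DESeq2 (97 shared), 31 with voom (30 shared), 0 on the compared groups alone, 16 to 1313 without 1 library, 5 without night noise ADX a and c, and 2073 without night noise ADX a and day noise ADX a, an alternative chosen after seeing the data; RLE scaling gave 101 and no filter 82. The 3 genes of the sham exposure ADX groups became 34 with DESeq2, 38 with voom, 13 on the compared groups alone and 0 to 3 without 1 library. The 186 of the noise sham-operated groups became 491 with DESeq2, 493 with voom, 31 on the compared groups alone and 53 to 135 without 1 library. The 1 gene that differed with noise became 23 with DESeq2, 0 on the compared groups alone, 0 to 36 without 1 library, 0 without night noise ADX a and c and 919 without both a libraries. The 0 genes that differed with adrenalectomy (2407 unadjusted, edgeR) became 38 with DESeq2, 0 to 600 without 1 library, 1 without night noise ADX a and c and 1931 without both a libraries. The cause of these shifts was not tested.

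With the replicate block the counts were 83 (75 shared with the 103), 2, 144, 1 and 0, in the same order. Between night and day noise ADX libraries of the same letter, deviations from the group mean correlated at -0.197 (a), -0.006 (b) and -0.244 (c). Night noise ADX a correlated best with day noise ADX c (0.252), over 14319 genes. Deviations within a group of 3 depend on one another, so these values cannot decide whether the letters mark pairs. With 3 libraries a group and totals of 20409233 to 36108962 counts, changes of low genes and small changes may be missed.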
